A study of Mus musculus with 6 samples.

Results

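The genes described here encode the initiation and elongation factors of protein synthesis, the proteins that load ribosomes onto messenger RNA and move them along it. They were defined by gene name, with earlier results of these data already known. Every probe set on the array whose single annotated symbol began with Eif1 to Eif6, Eef1 or Eef2 was taken, leaving out Eif2s3x and Eif2s3y. This gave 64 probe sets for 47 genes, out of 12422 probe sets and 8251 named genes on the array. The set includes regulators that share these names, namely the kinases that phosphorylate eIF2, the proteins that bind eIF4E, the eEF2 kinase and a methyltransferase of eEF1A.

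RNA came from whole uteri of ovariectomised C57BL/6 female mice, aged 10 to 11 weeks per the labels, which were killed 7 days after surgery. Other label entries, on age at arrival and acclimation, conflict with that age. Estradiol, the main ovarian estrogen, was injected once under the skin at 0.05 µg per mouse, and uteri were taken after 1, 3, 6, 12 and 24 h in separate groups. A control group received vehicle alone and was killed after 24 h, per its source label. The title of that array gives a different time. All groups lacked ovaries, the vehicle group included. Uteri were pooled before extraction and each group was read on 1 array. The labels do not make clear how many of the 10 mice they state entered each pool. Without replicates there is no measure of error, and no difference was tested. Each ratio below compares 2 arrays and all share the vehicle array. By the source labels, only the 24 h array matches vehicle in time since injection.

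Initiation begins when eIF2 brings the initiator transfer RNA to the small ribosomal subunit, with eIF1, eIF1A, eIF3 and eIF5 bound to it. The eIF4F complex, made of the cap-binding protein eIF4E, the scaffold eIF4G and the helicase eIF4A, recruits the messenger RNA, and the eIF4E-binding proteins block that step. The exchange factor eIF2B recharges eIF2 with GTP, a reaction that the eIF2 kinases inhibit. During elongation eEF1A delivers aminoacyl-transfer RNAs and eEF2 moves the ribosome by one codon. Estrogen is known to raise protein synthesis in the uterus of rodents as the organ grows.

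Values are signal intensities on a linear scale after all arrays were brought to the same trimmed mean. Signals under a floor of 142.8, the 40th percentile of all values, were raised to it before log2 ratios were taken, so that a fold against such a signal is a lower bound. A gene was represented by its probe set with the highest mean signal. By this rule 42 of the 47 genes reached the floor on 1 array or more, and 34 did so on all 6. The 5 genes below it on every array were Eif4e, Eif4h, Eif5a, Eef1g and Eif4enif1, so nothing can be said of the cap-binding protein itself. Of all named genes, 6562 were measured in this sense, and they form the background for the counts below.

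The arrays for vehicle and for 1, 6, 12 and 24 h gave Spearman correlations across probe sets between 0.929 and 0.968 in 10 pairings. With the array labelled 3 h these were only 0.843 to 0.857, and many of its markers went against a uterine sample. The summed signal of 6 skeletal muscle markers was 66521 on it, against 448 to 2787 on the other arrays, and all 6 were at least 2-fold higher than vehicle. There, 10 of 13 uterine epithelium markers and 7 of 8 smooth muscle markers were at least 2-fold lower than vehicle, and 6 of 8 macrophage and leukocyte markers were higher. In the other direction, the epithelial marker Ltf was 4.15-fold and the smooth muscle marker Des 1.58-fold higher. Of 10 stromal markers 5 were at least 2-fold lower and 2 higher. The values of the array labelled 3 h are therefore given apart from the time course. On the other arrays the summed signal was 14241 to 19006 for uterine epithelium and 40529 to 68871 for smooth muscle, with vehicle at 15033 and 50824. On the array labelled 3 h these sums were 12077, of which Ltf had 11157, and 7322. In bulk tissue, fewer cells of a type and less RNA per cell cannot be told apart.

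The factor genes that were 2-fold higher at 6 h differ in the motifs found around their annotated start sites. To compare them, 280 bases of the coding strand, from 250 before the annotated start to 30 after it, are printed for 5 of these genes and for Eef1a1, the brightest factor gene, which was not higher. All are from the RefSeq table of GRCm38.p6. Capitals mark CACGTG (the E-box, bound by Myc and related proteins), CCGGAAG or its complement CTTCCGG (a core bound by ETS factors), and GGTCA or TGACC (a single arm of the estrogen response element).
Eif3a, chr19:60790664-60790943, - strand: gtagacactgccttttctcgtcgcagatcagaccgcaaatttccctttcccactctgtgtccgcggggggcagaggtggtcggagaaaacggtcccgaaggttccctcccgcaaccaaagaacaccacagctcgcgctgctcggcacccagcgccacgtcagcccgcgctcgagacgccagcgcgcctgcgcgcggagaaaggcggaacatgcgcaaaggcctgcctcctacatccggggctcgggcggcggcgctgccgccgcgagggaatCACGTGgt
Eif3d, chr15:77970795-77971074, - strand: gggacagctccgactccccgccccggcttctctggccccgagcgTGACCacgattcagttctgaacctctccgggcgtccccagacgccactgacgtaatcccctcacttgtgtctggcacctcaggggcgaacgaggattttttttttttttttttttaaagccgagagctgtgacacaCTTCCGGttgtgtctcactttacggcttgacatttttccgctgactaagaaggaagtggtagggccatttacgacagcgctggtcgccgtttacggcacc
Eif3b, chr5:140419055-140419334, + strand: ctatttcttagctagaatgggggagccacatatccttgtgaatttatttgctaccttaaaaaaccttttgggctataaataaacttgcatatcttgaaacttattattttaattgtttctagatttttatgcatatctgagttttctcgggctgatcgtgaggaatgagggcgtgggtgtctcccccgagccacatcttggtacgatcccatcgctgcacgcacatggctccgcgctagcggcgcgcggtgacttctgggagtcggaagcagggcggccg
Eif3j1, chr2:122028330-122028609, + strand: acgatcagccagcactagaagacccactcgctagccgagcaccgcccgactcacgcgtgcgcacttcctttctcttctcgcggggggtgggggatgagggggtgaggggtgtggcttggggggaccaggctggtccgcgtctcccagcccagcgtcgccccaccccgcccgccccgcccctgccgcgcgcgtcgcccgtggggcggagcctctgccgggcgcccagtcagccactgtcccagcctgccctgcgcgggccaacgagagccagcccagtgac
Eif2b5, chr16:20498567-20498846, + strand: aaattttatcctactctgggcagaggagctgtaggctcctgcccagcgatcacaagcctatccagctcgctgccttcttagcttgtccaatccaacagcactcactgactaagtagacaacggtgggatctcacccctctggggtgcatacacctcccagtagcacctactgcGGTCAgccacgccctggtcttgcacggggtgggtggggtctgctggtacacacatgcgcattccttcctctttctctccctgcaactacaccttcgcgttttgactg
Eef1a1, chr9:78481695-78481974, - strand: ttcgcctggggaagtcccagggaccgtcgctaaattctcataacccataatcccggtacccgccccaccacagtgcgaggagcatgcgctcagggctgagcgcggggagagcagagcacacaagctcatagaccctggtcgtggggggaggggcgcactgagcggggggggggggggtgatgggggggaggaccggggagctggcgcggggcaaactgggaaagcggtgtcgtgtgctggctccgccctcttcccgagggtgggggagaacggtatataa

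Eif1a and Eif6 had no window among these sequences, so they could not be searched and are not shown. Eif3a held an E-box that began at base 23, counting the annotated start as 1. Eif3d held the ETS core 70 bases before the start and the single arm 206 bases before it, and Eif2b5 held the single arm 77 bases before it. None of these letters was found in the windows of Eif3b, Eif3j1 or Eef1a1. All motifs were searched on both strands, and a single arm is part of each full response element. The table held 54 windows for 39 of the 47 genes. Of these 39, Eif3a, Eif3b, Eif3d, Eif3j1 and Eif2b5 were 2-fold higher at 6 h. The E-box was in 12 of the 54 (22.2%), against 9.53% of the 6802 windows of measured genes and 6.79% of all 32851 windows. Of the 10 genes with an E-box 1, Eif3a, was 2-fold higher at 6 h. Eif4e, Eif4h and Eif5a among them were below the floor, so the 54 windows are not all of measured genes. The ETS core was in 17 (31.5%), against 15.4% and 8.45%, and of its 14 genes 1, Eif3d, was 2-fold higher at 6 h. The single arm was in 17 (31.5%), against 36.3% and 38.5%, and of its 13 genes Eif3d and Eif2b5 were 2-fold higher at 6 h. Whether genes with a motif differed from the others was not tested. The full element, GGTCA and TGACC with 3 bases between them, was in none of the 54 and in 22 of all windows. Windows of 1 gene can overlap, and a match of letters is not a binding site.

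At 1 h the factor genes stood close to vehicle. None of the 42 was 2-fold higher and none 2-fold lower, where 0.853% and 0.351% of all measured genes were. Their median log2 ratio was 0.00, with 20 genes above vehicle and 21 below. At 1.5-fold, Eef1b2 and Eif3f were higher and Eif2b1 and Eef1d lower, against 4.08% of all genes higher and 3.31% lower. The ratios of Eef1b2 and Eif3f rest on vehicle signals below the floor.

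At 6 h a group of initiation factors stood above 2-fold. Of the 42 genes, 7 (16.7%) were at least 2-fold higher and none lower, where 6.34% of all measured genes were higher and 8.35% lower. These 7 were Eif3a, Eif3b, Eif3d, Eif3j1, Eif1a, Eif6 and Eif2b5. At 1.5-fold, 16 were higher and 2 lower, with 14.4% and 18.7% of all genes. The median log2 ratio of the 42 was 0.33, that of all measured genes 0.00. Just under 2-fold stood Eif4a1 at a log2 ratio of 0.96, and just over it Eif2b5 at 1.04. Another 6 genes had log2 ratios between 0.75 and 0.96, namely Eif4g2, Eif3c, Eif5, Eif2s2, Eif1ax and Eif2b1. Markers of other cells differed on the same array. Of 10 stromal markers 4 were 2-fold lower at 6 h and none higher, with a summed signal of 33112 at 6 h and 61734 in vehicle. The leukocyte sum was 4116 at 6 h and 6379.5 in vehicle, and the epithelial sum 14241 at 6 h and 15033 in vehicle. Of 4 pancreatic acinar markers 3 were 2-fold lower, with a sum of 822 at 6 h and 3653 in vehicle, and of 5 adipocyte markers 1 was, with 6535 at 6 h and 12395 in vehicle. Of 8 endothelial markers 3 were 2-fold lower, with 6494 at 6 h and 6718 in vehicle. Their part in the factor genes' values was not tested.

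**Figure D1:**
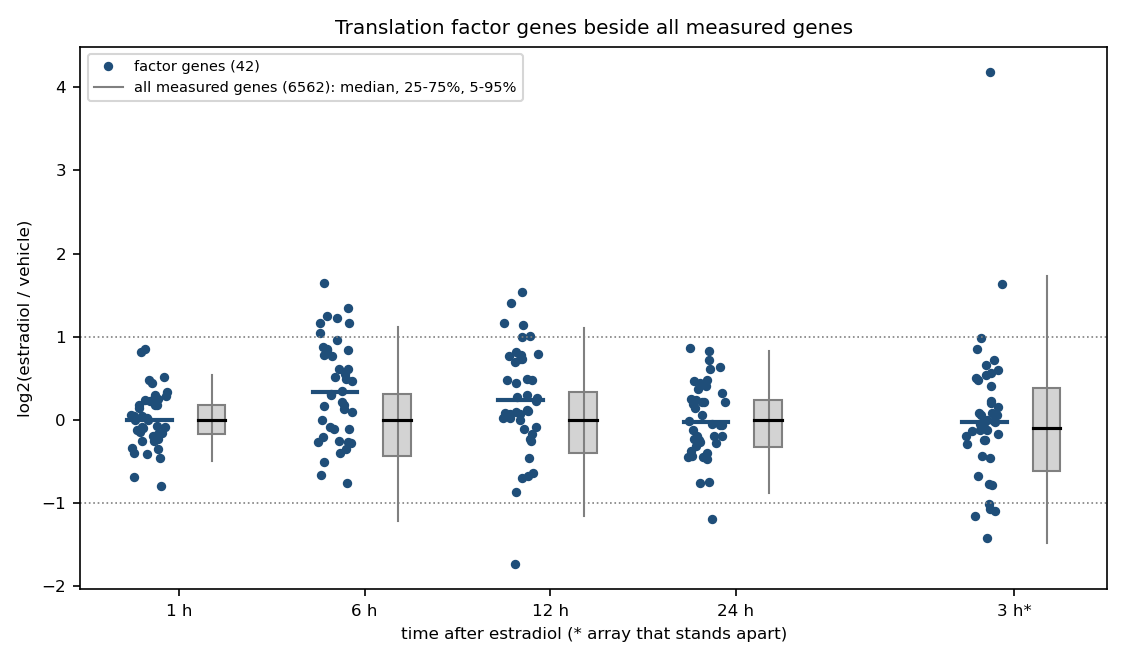
Each point is the log2 ratio to vehicle (vertical axis) of 1 of the 42 measured factor genes at each time (horizontal axis), with a blue bar at their median, beside the median, middle 50% and middle 90% of all 6562 measured genes in grey. The factor genes' median lies at 0.33 at 6 h and 0.24 at 12 h, with all genes at 0.00, and near 0 at 1 and 24 h, and dotted lines mark 2-fold.

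At 12 h fewer factor genes stood above 2-fold. Of the 42, 5 (11.9%) were at least 2-fold higher and 1 lower, where 6.16% of all measured genes were higher and 6.93% lower. The 5 were Eif3j1, Eif6, Eif2b5, Eif1a and Eif1ax, the first 4 of which were also 2-fold higher at 6 h. The lower gene was Eef1a2. At 1.5-fold, 14 were higher and 5 lower (14.9% and 17.1% of all genes). The median log2 ratio was 0.24, with 30 genes above vehicle and 11 below. Eif3b stood just under 2-fold, at 1.99-fold. When the median over a gene's probe sets was used, 3 genes were 2-fold higher at 12 h, because Eif1a and Eif1ax stood at log2 ratios of 0.80 each.

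By 24 h no factor gene was 2-fold higher and Eef1a2 alone was 2-fold lower, where 3.41% of all measured genes were higher and 3.54% lower. The median was -0.03. At 1.5-fold, 5 were higher and 3 lower, with 9.86% and 12.6% of all genes. Of the 8 genes that were 2-fold higher at 6 or 12 h, 5 were under 1.5-fold at 24 h, namely Eif1a, Eif3a, Eif3b, Eif3d and Eif3j1. Eif6, Eif1ax and Eif2b5 remained above 1.5-fold. Leaving the array labelled 3 h aside, 16 of the 42 genes had their highest signal at 6 h, 12 at 12 h, 8 in vehicle, 4 at 1 h and 2 at 24 h.

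**Figure D2:**
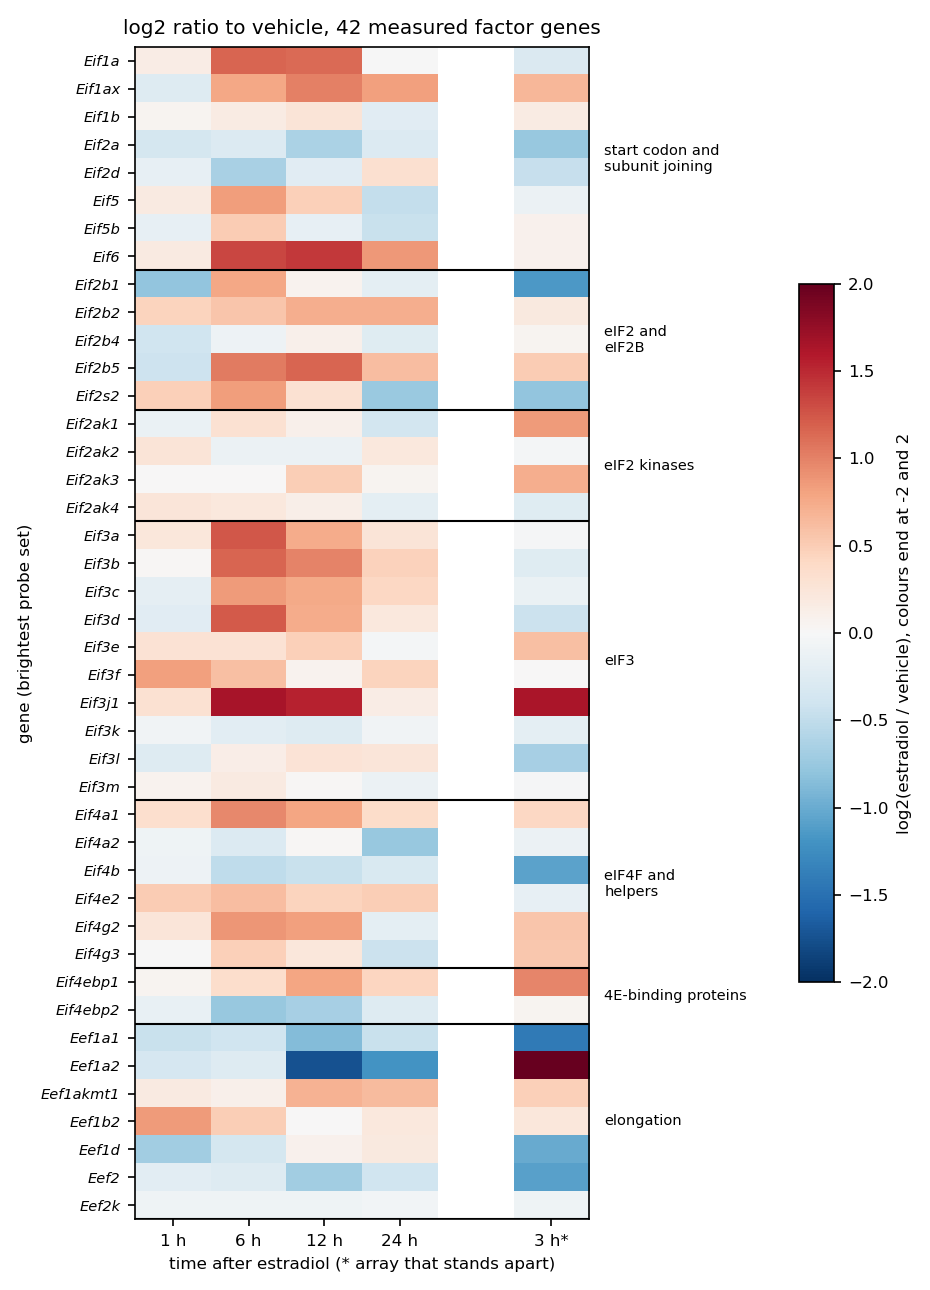
Colours give the log2 ratio to vehicle of the 42 measured factor genes (rows, grouped by role) at 1, 6, 12 and 24 h and, set apart, on the array labelled 3 h (columns); the scale ends at -2 and 2. Red is concentrated at 6 and 12 h in Eif3a to Eif3d, Eif3j1, Eif1a, Eif1ax, Eif6, Eif2b5, Eif4a1 and Eif4g2. The rows of Eef1a1 and Eef2 are blue at every time.

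The eIF3 complex, the largest initiation factor and the platform that joins the small subunit to eIF4F, supplied 4 of the 7 genes at 6 h. Eif3j1, whose product is a loosely bound subunit that contacts the decoding site, had a signal of 859 in vehicle, 1059 after 1 h, 2681 after 6 h, 2500.3 after 12 h and 952 after 24 h. It was high at 6 and 12 h, by 3.12-fold and 2.91-fold, and at 1 and 24 h it lay within 1.23-fold of vehicle.

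Eif3a, the largest subunit and a scaffold of the complex, had 715 in vehicle, 835 after 1 h, 1699 after 6 h, 1201 after 12 h and 852 after 24 h. Eif3b, which carries the propeller domain that docks onto the small subunit, had 2222 in vehicle, 2256 after 1 h, 4983 after 6 h, 4429 after 12 h and 3071 after 24 h. Eif3d, a subunit able to bind the cap of some messenger RNAs, had 2004 in vehicle, 1717 after 1 h, 4685 after 6 h, 3345 after 12 h and 2319 after 24 h. All 3 were highest at 6 h, at 2.38-fold, 2.24-fold and 2.34-fold, and lower at 12 h than at 6 h.

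Eif3c, a core subunit that contacts eIF1 and eIF5, followed them below the 2-fold line. It had 4165 in vehicle, 3657 after 1 h, 7509 after 6 h, 7077 after 12 h and 5541 after 24 h, which is 1.80-fold at 6 h and 1.70-fold at 12 h. It was the brightest of the 10 eIF3 genes.

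The other eIF3 genes lay nearer to vehicle. Eif3k, Eif3l and Eif3m had log2 ratios of -0.20, 0.14 and 0.17 at 6 h, and Eif3e had 0.30. Eif3f was at least 1.52-fold higher at 6 h, with 218 at 6 h and a vehicle signal of 118, below the floor. Signals of different probe sets depend on their probes as well as on the transcripts, so the subunits' levels cannot be ranked. Across the 10 eIF3 genes the median log2 ratio was 0.73 at 6 h, 0.61 at 12 h and 0.22 at 24 h, and 9 of the 10 lay above vehicle at 6 h.

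**Figure D3:**
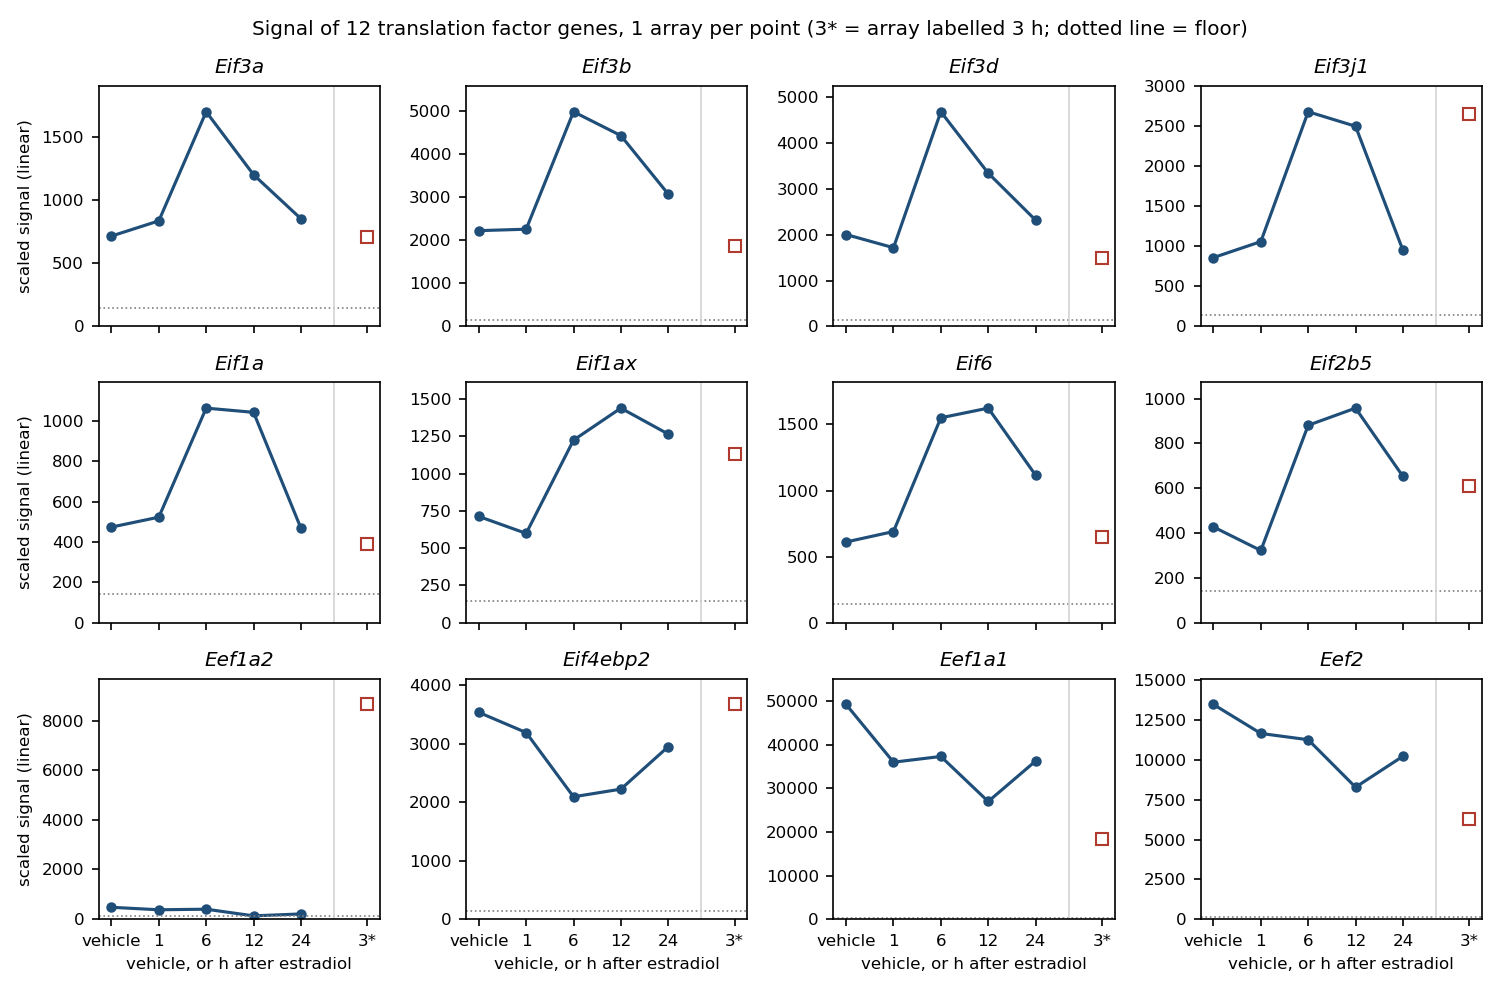
Each panel gives the scaled signal (vertical axis, linear, from 0) of 1 gene on the vehicle array and at 1, 6, 12 and 24 h after estradiol (horizontal axis, not to scale in time), with the array labelled 3 h as an open square; each point is 1 array and the dotted line is the floor of 142.8. Eif3a, Eif3b, Eif3d, Eif3j1 and Eif1a peak at 6 h, Eif1ax, Eif6 and Eif2b5 at 12 h, Eif4ebp2 is lowest at 6 h, and Eef1a1 and Eef2 are highest in vehicle among the 5 joined points.

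Among the factors that act at the start codon and in subunit joining, Eif6 and the eIF1A genes stood out. Eif6, whose product keeps the large subunit from joining too early and is needed to make that subunit, had 611 in vehicle, 689.9 after 1 h, 1550.2 after 6 h, 1623 after 12 h and 1116 after 24 h. It was 2.54-fold higher at 6 h and 2.66-fold at 12 h, and at 1.83-fold it had the highest ratio of the 42 genes at 24 h.

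Eif1a and Eif1ax encode near-identical forms of eIF1A, which stabilises scanning ribosomes. Eif1a had 474 in vehicle, 524 after 1 h, 1065 after 6 h, 1044 after 12 h and 469 after 24 h. Eif1ax had 713 in vehicle, 599.5 after 1 h, 1225 after 6 h, 1441 after 12 h and 1266 after 24 h. Eif1a was thus 2.24-fold higher at 6 h and back at its vehicle signal at 24 h, whereas Eif1ax was 2.02-fold higher at 12 h and still 1.77-fold higher at 24 h. A second probe set of Eif1a had a log2 ratio of 1.22 at 6 h and 0.46 at 12 h. That of Eif1ax had 0.31 and 0.59 at those times and -0.07 at 24 h, so the later course of Eif1ax rests on 1 of its 2 probe sets. Whether the probes of the 2 genes read each other's transcripts was not tested.

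The rest of this class was mixed. Eif5, the GTPase activator of eIF2, was 1.79-fold higher at 6 h and 1.39-fold lower at 24 h. Eif1b, the brightest gene of the class and a close relative of the start-codon factor eIF1, had 1544 in vehicle, 1599.5 after 1 h, 1734 after 6 h, 1849 after 12 h and 1323 after 24 h, with log2 ratios from -0.22 to 0.26. Of Eif2d and Eif2a, which can deliver initiator transfer RNA without eIF2, each was lower at some times, Eif2d by 1.58-fold at 6 h and Eif2a by 1.56-fold at 12 h. At 24 h Eif2d was 1.25-fold higher than vehicle. Eif2a is not the gene of the eIF2 alpha subunit, which was not among the members.

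In the eIF2 and eIF2B class, only the gene of the catalytic subunit of eIF2B passed 2-fold. Eif2b5 had 427 in vehicle, 322 after 1 h, 881 after 6 h, 958 after 12 h and 653 after 24 h. It was 2.06-fold higher at 6 h and 2.24-fold at 12 h, and its second probe set had log2 ratios of 0.93 and 1.06. Of the regulatory subunits, Eif2b1 was 1.71-fold higher at 6 h, after being 1.73-fold lower at 1 h, and Eif2b2 was 1.66-fold higher at 12 h. Eif2b4, the brightest gene of the class, had 787 in vehicle, 597 after 1 h, 733 after 6 h, 845 after 12 h and 669 after 24 h, with no value above vehicle by more than 1.07-fold. Eif2s2, the beta subunit of eIF2, was 1.78-fold higher at 6 h and 1.67-fold lower at 24 h. Its second probe set had a log2 ratio of 0.76 at 6 h and 0.05 at 24 h, so the low value at 24 h was seen on 1 probe set only.

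None of the eIF2 kinase genes reached 1.5-fold at 1, 6, 12 or 24 h. Eif2ak1, the heme-regulated kinase and the brightest of the 4, had 483 in vehicle, 443 after 1 h, 600.2 after 6 h, 517 after 12 h and 373 after 24 h. Eif2ak2, the kinase activated by double-stranded RNA, Eif2ak3, the kinase of the endoplasmic reticulum, and Eif2ak4, the kinase activated by uncharged transfer RNA, had signals between 76.1 and 201 on these arrays. They lay close to the floor, which shortens such ratios.

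Within eIF4F the paralogous helicase genes took different courses. Eif4a1 was 1.95-fold higher at 6 h and 1.72-fold at 12 h, whereas Eif4a2 was 1.21-fold lower at 6 h and 1.69-fold lower at 24 h. Each was read by 1 probe set. That of Eif4a1 dropped out when probe sets with a letter suffix in their name were left out. Eif4a2, the brightest gene of the class, had 5949 in vehicle, 5591 after 1 h, 4925 after 6 h, 6061 after 12 h and 3520.0 after 24 h. Eif4g2, a relative of eIF4G that lacks the eIF4E-binding part, was 1.84-fold higher at 6 h and 1.76-fold at 12 h. The scaffold gene Eif4g3 was 1.39-fold and the cap-binding relative Eif4e2 1.53-fold higher at 6 h. Eif4b, which stimulates the helicase, was lower by 1.42-fold at 6 h, and its second measured probe set had a log2 ratio of -0.76.

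The genes of the eIF4E-binding proteins lay on opposite sides of vehicle. Eif4ebp2, the brighter of the 2 measured, had 3532 in vehicle, 3187 after 1 h, 2089.8 after 6 h, 2221 after 12 h and 2946 after 24 h, which is 1.69-fold lower at 6 h and 1.59-fold lower at 12 h. Its second probe set was further below vehicle at 6 h, at a log2 ratio of -1.31, but stood at -0.24 at 12 h. Eif4ebp1 was higher, by 1.28-fold at 6 h and 1.73-fold at 12 h, with a low signal of 227 in vehicle.

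The elongation class, with 7 measured genes, was the only one apart from the eIF2 kinases without a gene at 1.5-fold in either direction at 6 h. Of all measured genes 14.4% were 1.5-fold higher and 18.7% lower at that time, and the class is small. Eef1a1, the main form of eEF1A, had 49301 in vehicle, 36041 after 1 h, 37361 after 6 h, 27016 after 12 h and 36304 after 24 h. It was the brightest probe set of the whole vehicle array and the second brightest at 1, 6, 12 and 24 h, and whether such signals saturate was not tested. Eef2 had 13488 in vehicle, 11667 after 1 h, 11272 after 6 h, 8289 after 12 h and 10233 after 24 h. Both genes were below vehicle on every array, and lowest at 12 h among these times, by 1.82-fold for Eef1a1 and 1.63-fold for Eef2. With quantile normalization, which sets a value by its rank on the array, the log2 ratio of Eef1a1 was -0.15 at each of 1, 6, 12 and 24 h. Its rank was the same at these times, so that setting could not show a minimum. Transcripts known to carry the terminal oligopyrimidine tract, through which mTOR controls translation, include those of Eef1a1, Eef2, Eef1b2, Eef1d, Eif4b and ribosomal proteins. This is not a full list, and whether transcripts with the tract differed from the others was not tested.

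The 2 smaller subunits of the eEF1 exchange complex that were measured showed no shared course. Eef1d was 1.61-fold lower at 1 h and within 1.27-fold of vehicle at 6, 12 and 24 h. Eef1b2 lay near the floor, at 49.7 to 257. Eef2k, the kinase that inhibits eEF2, reached at most 152, its vehicle signal, and so gives no usable ratio. Eef1akmt1, a lysine methyltransferase of eEF1A, was 1.62-fold higher at 12 h and 1.56-fold at 24 h.

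Eef1a2, the form of eEF1A found mainly in skeletal muscle, heart and neurons, was the factor gene furthest below vehicle. It had 476 in vehicle, 375 after 1 h, 399 after 6 h, 130.3 after 12 h and 208 after 24 h, which is at least 3.33-fold lower at 12 h and 2.29-fold lower at 24 h. With a 60th percentile floor its log2 ratio was -0.43 at both times. Markers of other cell types also differed over the same arrays. The summed signal of 5 adipocyte markers was 12395 in vehicle, 13214 after 1 h, 6535 after 6 h, 4479.9 after 12 h and 3951 after 24 h. That of 4 pancreatic acinar markers was 3653 in vehicle, 1704 after 1 h, 822 after 6 h, 1435 after 12 h and 1397 after 24 h, and Prss2 among them was below the floor at 1, 6, 12 and 24 h. Of the 6 skeletal muscle markers, Ckm, Mb, Myh1, Myh4 and Tnnt3 were below the floor in vehicle and at 1, 6, 12 and 24 h. The other one, Acta1, had 2566 at 12 h and 1609 at 24 h, against 485 in vehicle, and was 5.29-fold and 3.32-fold higher. The part of these cells in the values of Eef1a2 was not tested.

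On the array labelled 3 h, Eef1a2 had a signal of 8656, 18.2-fold above vehicle, beside the skeletal muscle markers given above. Of the 42 factor genes 2 were at least 2-fold higher there and 5 lower, where 10.8% of all measured genes were higher and 12.3% lower. At 1.5-fold, 7 were higher and 8 lower, with 18.8% and 26.0% of all genes. Scaling by the array median instead gave 3 higher and 2 lower at 2-fold. Eif3j1, at 2658, was the other higher gene by the main scaling. The lower genes were Eef1a1 at 2.67-fold (a log2 ratio of -0.68 with quantile normalization), Eif2b1 at 2.23-fold, Eef2 at 2.13-fold, Eif4b at 2.10-fold and Eef1d at 2.02-fold. These 5 had signals of 18434, 274, 6320.2, 1655 and 1294 in that order. Eif3a, Eif3b, Eif3d, Eif1a and Eif6 lay within 1.35-fold of vehicle on it, at 704, 1875, 1488, 388 and 649.8. Eif1ax had 1129 and Eif2b5 609, which is 1.58-fold and 1.42-fold higher. These values cannot be told apart from the different cell makeup that the markers show.

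Beyond the factors themselves, genes of translation and its control were read from lists of known members. Of 6 termination and recycling genes, 3 passed 2-fold upward at 6 h and none downward, where 6.34% and 8.35% of all measured genes did. Their median log2 ratio was 0.78. Gspt1, which encodes the release factor eRF3, was 3.11-fold higher, Abce1, which splits ribosomes after release, 2.31-fold, and Etf1, which recognises stop codons, 2.26-fold. At 12 h 2 of the 6 were 2-fold higher, Gspt1 at 2.78-fold and Abce1 at 2.25-fold, where 6.16% of all measured genes were, and at 24 h none.

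Of 11 measured genes of eIF2 dephosphorylation and the integrated stress response, 5 passed 2-fold upward at 6 h and none downward (6.34% and 8.35% of all measured genes), and the median log2 ratio was 0.63. Atf4, the transcription factor whose translation rises when eIF2 is phosphorylated, had 1309 in vehicle, 1301 after 1 h, 5914 after 6 h, 3072 after 12 h and 1435 after 24 h. It was 4.52-fold higher at 6 h and 2.35-fold at 12 h, when Dnajc3 was 2.54-fold and Asns 2.17-fold higher. Its target Asns, asparagine synthetase, was 2.37-fold higher at 6 h, Ppp1r15b, which directs a phosphatase to eIF2, 2.64-fold, Dnajc3, an inhibitor of eIF2 kinases, 2.88-fold, and Cebpb 2.36-fold. Cebpb was already 2.78-fold higher at 1 h. Ddit3, another gene downstream of Atf4, was 1.37-fold higher at 6 h and 2.14-fold lower at 24 h.

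The lists for signalling to eIF4F and for poly(A)-binding proteins were less uniform. Of 12 genes of the mTOR, S6 kinase and MNK pathways none was 2-fold away from vehicle at 6 h (median -0.10), where 6.34% of all measured genes were 2-fold higher and 8.35% lower. At 12 h, with 6.93% of all genes lower, Mknk1, a kinase of eIF4E, was 2.15-fold and Ddit4, an inhibitor of mTOR, 2.13-fold lower. Of 7 poly(A)-binding and cap-linked genes, Pabpc4 was 2.27-fold and Larp1, a repressor of transcripts with a terminal oligopyrimidine tract, 2.13-fold higher at 6 h, and Paip2, an inhibitor of poly(A)-binding protein, 2.12-fold lower. At 12 h Pabpc4 was 2.86-fold higher. Pabpc1, the main poly(A)-binding protein, lay within 1.03-fold of vehicle at 6 h. Of 3 genes that modify eIF5A or eEF2, Dohh, which completes hypusine on eIF5A, was 2.32-fold and Dph5, of the diphthamide pathway of eEF2, at least 2.91-fold higher at 6 h. At 12 h Dph5 was at least 2.14-fold higher. The 4 mitochondrial translation factors measured had a median log2 ratio of 0.46 at 6 h and 0.52 at 12 h, with no gene at 2-fold.

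**Figure D4:**
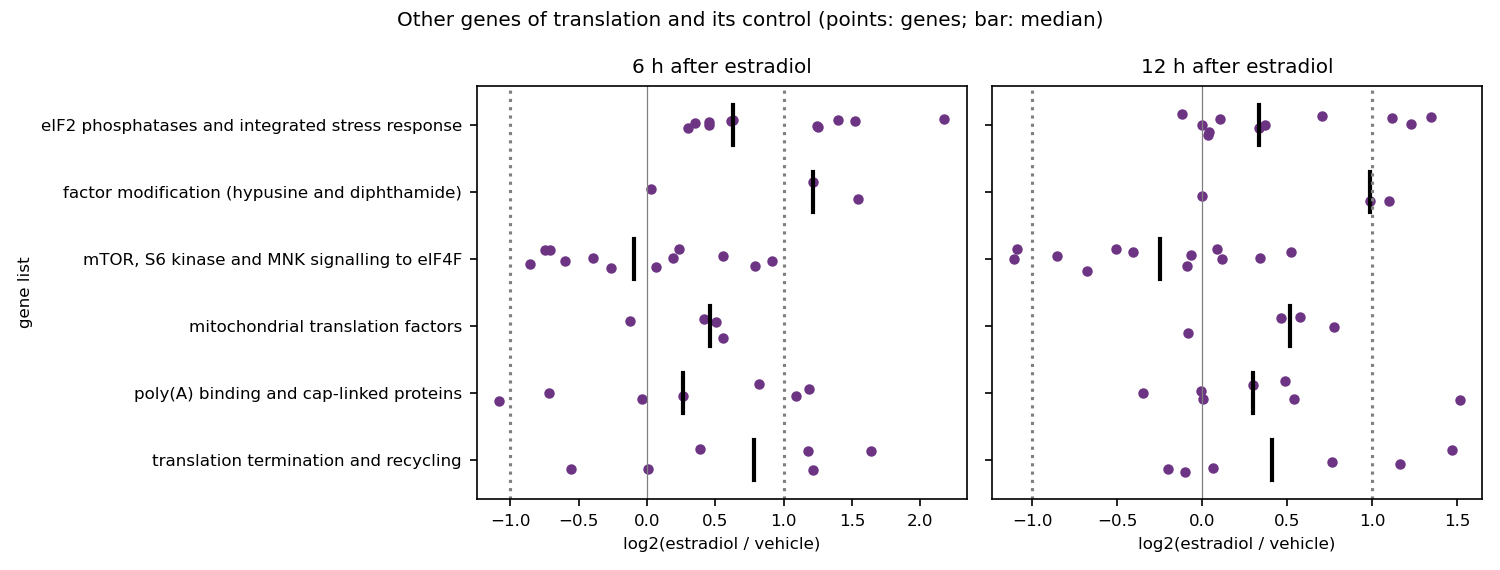
Points are genes of 6 lists of translation and its control (rows), placed by their log2 ratio to vehicle (horizontal axis) at 6 h (left) and 12 h (right); black bars are list medians and dotted lines mark 2-fold. At 6 h the medians of termination and of the integrated stress response lie at 0.78 and 0.63, and that of mTOR, S6 kinase and MNK signalling at -0.10.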

How the data were processed

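Total RNA (20 µg) of pooled uteri was labelled and hybridised to Affymetrix U74Av2 arrays, per the labels' protocols. The deposited values are signal intensity from MAS5, per the submitters' processing notes. Its version, settings and detection calls are not given in the sources used here. From the values, the authors had scaled each array to a common trimmed mean.

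Of 12488 probe sets, 66 controls were left out. The array annotation gave 10833 probe sets 1 gene symbol, 396 several and 1193 none. Gene identifiers of 10817 probe sets matched RefSeq, from which symbols were renewed, and the rule gave the same members with old and new symbols. Each array was rescaled to the same mean after trimming 2% at each end, floored at the 40th percentile and put on a log2 scale. Counts used fixed minimums of 2-fold and 1.5-fold. With 1 array a group there are no p-values, and precision is limited by the few arrays. Values on all arrays are given for genes at 2-fold at 1, 6, 12 or 24 h and for the brightest gene of each role class. Eef2 and other members under 2-fold were added after their values were seen. The members and lists were chosen with earlier results of these data known. Control 3' to 5' signal ratios were 1.13 to 1.25 for actin and 0.793 to 0.892 for Gapdh. The alternatives were other floors, no floor, 2 other scalings, 2 other ways to represent a gene, another reference and leaving out the array labelled 3 h. Scripts used Python 3.11.15, numpy 2.4.6, pandas 2.3.3 and scipy 1.17.1, and were tested on simulated data.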

Additional observations from a re-analysis of the deposited data

How the results depend on the processing

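No paired analysis was possible because each group has 1 array. The number of factor genes at least 2-fold higher at 6 h was 7, and 5 to 8 under the alternatives. The count of 5 came from taking each gene's median probe set, with which Eif3b stood at a log2 ratio of 0.58, since its other probe set was below the floor on all arrays, and Eif2b5 at 0.99. That setting also gave 3 genes higher at 12 h, against 5. A floor at the 20th percentile left 1 gene higher and 1 lower at 1 h, 1 lower at 6 h, 4 at 12 h and 2 at 24 h. A floor at the 60th percentile left 0 lower at 12 h and 0 at 24 h. Without a floor, on log2 of the signal plus 32, 1 was lower at 1 h and 2 at 12 h. The lower count on the array labelled 3 h was 5, but 2 when array medians were equalised and 3 against vehicle and 1 h averaged. The other 74 recomputed counts were within 1.5 times of the value reported. Of 683 recomputed log2 ratios of the 16 genes named by rule, 9 dropped under 2-fold, 1 passed it, and none of those at 2-fold changed sign. Leaving out the array labelled 3 h, an alternative chosen after seeing the data, changed no count at the other times. No scaling moved the median of all measured genes by over 0.1 on the log2 scale. Ratios near the floor, such as those of Eif2ak2, Eif2ak3 and Eif2ak4, are limited by signal over background.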
